A study of Homo sapiens with 2 samples.

Results

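The genes described here encode the eukaryotic translation initiation factors (eIFs) and their direct regulators: all symbols of the deposited tables that start with EIF followed by a digit, 57 of 23686 symbols. EIF3C and the near-identical EIF3CL were treated as a sum, which leaves 56 genes. Of these, 53 reached 1 CPM (reads per 1000000, scaled to library size) in at least one library and were compared, among 13130 genes in all that did. EIF1B-AS1 (5 and 5 reads in floating and adherent cells), EIF4E1B (4 and 1 reads) and EIF3IP1 (0 and 0 reads) did not. EIF1AY, the Y-chromosomal copy of EIF1AX, was kept in all counts and medians, and its level is not given here.

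The data are 2 poly(A) RNA libraries of A427, an established cell line from a human non-small cell lung cancer, which forms floating spheres as well as an attached layer. Floating, sphere-forming cells gave 1 library of 27148842 gene-assigned reads and adherent cells 1 library of 26384670. Both growth forms were the same line in medium with fetal bovine serum, with the genotype label WT, while the title of the series calls the line CTNNB1-mutated. KRT8, KRT18 and EPCAM, which mark epithelial carcinoma cells, stood at 581, 613 and 582 TPM (transcripts per 1000000, a level per length) in floating cells and at 327, 342 and 615 TPM in adherent cells. Of the other listed epithelial markers, CDH1 had 13.9 TPM in floating and 18.9 TPM in adherent cells, and KRT19 was near the limit of detection, with 22 and 8 reads. CD3E and CDH5, markers of T cells and endothelium, had 0 reads in either library. A count of 0 allows a level of up to 0.1102 CPM in the floating and 0.114 CPM in the adherent library. No other listed marker of leukocytes, endothelium or fibroblasts exceeded the level of PTPRC, 1.95 TPM in floating and 2.84 TPM in adherent cells. With no replicate of either growth form, no test was made: each ratio compares these libraries, and its 95% interval covers counting error only. In bulk RNA, a change in the mix of cells and a change of RNA per cell cannot be told apart.

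Initiation brings the small ribosomal subunit, the initiator tRNA and an mRNA together. eIF2 carries the initiator tRNA with GTP, eIF2B recharges eIF2 with GTP, and kinases that phosphorylate the alpha subunit of eIF2 block that recharging under stress. eIF1, eIF1A, eIF3 and eIF5 act on the small subunit, while the eIF4F complex, made of the cap-binding protein eIF4E, the scaffold eIF4G and the helicase eIF4A, loads capped mRNAs, and the 4E-binding proteins hold eIF4E back when mTORC1 signalling is low. The mRNAs of many factors of translation begin with a TOP motif, a C at the cap followed by a run of pyrimidines, through which mTORC1 controls their own translation.

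Promoter windows from RefSeq (build GRCh38.p14, whereas the deposited counts were made on hg19) were matched by symbol for 45 of the 53 genes. The other 8 were EIF2AK1, EIF2S2, EIF3A, EIF3E, EIF3G, EIF3H, EIF3L and EIF4EBP1, whose starts and motifs were therefore not examined. EIF2S2 and EIF4EBP1, both among the higher genes below, are thus absent from the motif counts. So are EIF3A and EIF3L, whose counting intervals lay on the lower side. A TOP-like start, a C at an annotated start followed by at least 4 further bases of C or T, was found in 9 of the 45 (20%), against 7.46% of the 9595 tested genes with a window and 4.07% of all 35116 windows. The 30 bases around these 9 starts are shown because the genes differ in direction although they share this feature, with 15 bases before the start, then the start and 14 more, and with the pyrimidine run from the start in capitals.
EIF4B (chr12:53006441-53006470, + strand): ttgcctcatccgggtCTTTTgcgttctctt
EIF3F (chr11:7987322-7987351, + strand): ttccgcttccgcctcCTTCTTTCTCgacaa
EIF2S3 (chrX:24054941-24054970, + strand): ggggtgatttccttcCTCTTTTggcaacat
EIF3D (chr22:36529152-36529181, - strand): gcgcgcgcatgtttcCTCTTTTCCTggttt
EIF2A (chr3:150546772-150546801, + strand): tcacccgagcggtttCTCTTTCCgggacaa
EIF4A2 (chr3:186783562-186783591, + strand): gttgggcgccgctgtCTTTTCagtcgggcg
EIF2D (chr1:206612451-206612480, - strand): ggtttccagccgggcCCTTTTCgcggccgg
EIF3M (chr11:32583816-32583845, + strand): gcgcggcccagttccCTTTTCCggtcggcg
EIF3K (chr19:38619173-38619202, + strand): ttccgtttccaccacCTCTTCCTgttcccg
The genes are in the order of their log2 ratio of floating over adherent, from -0.20 for EIF4B to 0.31 for EIF3K. Their median log2 ratio was 0.03, against 0.12 for the 36 initiation factor genes whose window has no such start. Over all tested genes the medians were -0.01 with the start and -0.0003 without it.

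Taken gene by gene, the ratios of the 53 initiation factor mRNAs lay slightly toward floating cells, and no single gene differed by much. Their summed level was about equal, at 1.303% of all TPM in floating and 1.28% in adherent cells, and EIF1, the most abundant, was lower in floating cells. The median log2 ratio was 0.11, against -0.005 over all genes tested, and the middle 50% of the genes lay between 0.005 and 0.25. The highest ratio was 1.34-fold (EIF2B2), and the lowest, for EIF4EBP3, rested on 53 and 66 estimated reads. None passed 2-fold in either direction with a counting interval on that side, a rule that 2.03% of all tested genes passed, and none passed 1.5-fold, against 6.14%. Ratios were above 0 for 40 genes (75.5%, against 49.1% of all tested genes) and below 0 for 13 (24.5%, against 50.9%), with 35 above 0 on the deposited TPM and from 38 to 41 with other scalings of the counts.

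At 1.2-fold with the interval on that side, 11 of 53 genes were higher in floating cells, 20.8%, against 12.1% of all tested genes, and 0 were lower, against 12.5%. At 1.1-fold, 22 were higher and 3 lower, against 21.2% of all tested genes on each side. Counting intervals lay above 0 for 33 genes (62.3%) and below 0 for 6 (11.3%), against 25.4% and 25.6% of all tested genes. Those shares are not like for like, because intervals narrow with read depth. At least 20 CPM was reached by 50 of the 53 genes, against 8026 of the 13130 tested. The 11 genes higher past 1.2-fold were EIF2B2, EIF4EBP1, EIF2S2, EIF2B1, EIF3I, EIF4E3, EIF3K, EIF4E, EIF5AL1, EIF3J and EIF2B3. On TPM, with no counting interval, 7 of them passed 1.2-fold, and EIF2B3, EIF3J, EIF4E and EIF5AL1 lay between 0.23 and 0.25 on the log2 scale, where 1.2-fold is 0.26. Nearest to the threshold were EIF2B3 (1.201-fold) and EIF3J (1.21-fold) inside it, and EIF2B5 (1.19-fold), EIF2S1 (1.19-fold) and the sum of EIF3C and EIF3CL (1.19-fold) outside it. Among genes of at least 20 CPM the shares were 9 of 50 higher, 18.0%, against 10.4% of 8026 genes, and 0 lower, against 9.99%.

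**Figure D1:**
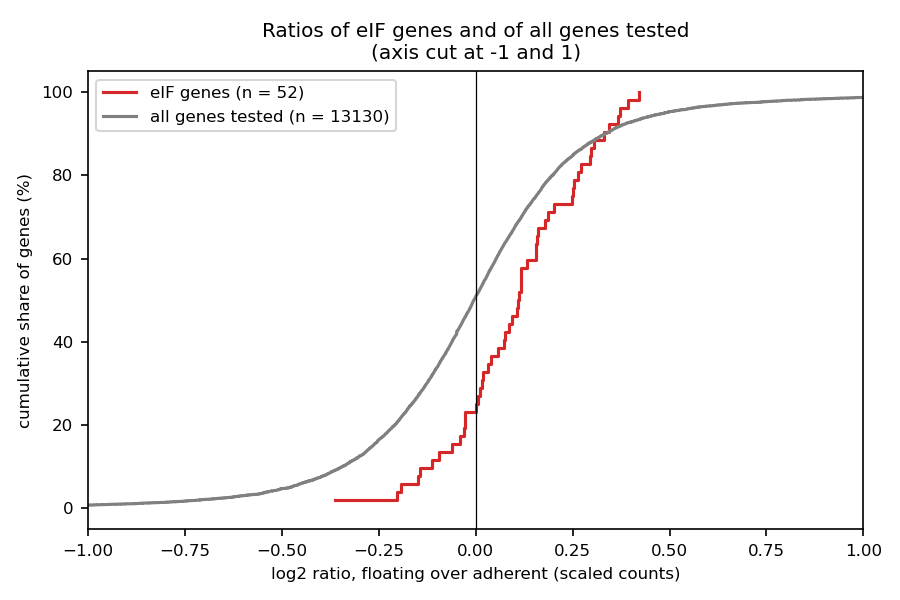
Cumulative share of genes (percent, y axis) by log2 ratio of floating over adherent (x axis), for 52 initiation factor genes (red) and all 13130 genes tested (grey); EIF1AY is not drawn. The red curve lies to the right of the grey one up to a log2 ratio of about 0.3 and ends at 0.42, the value of EIF2B2, while the grey one runs on past both ends of the axis.

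**Figure D2:**
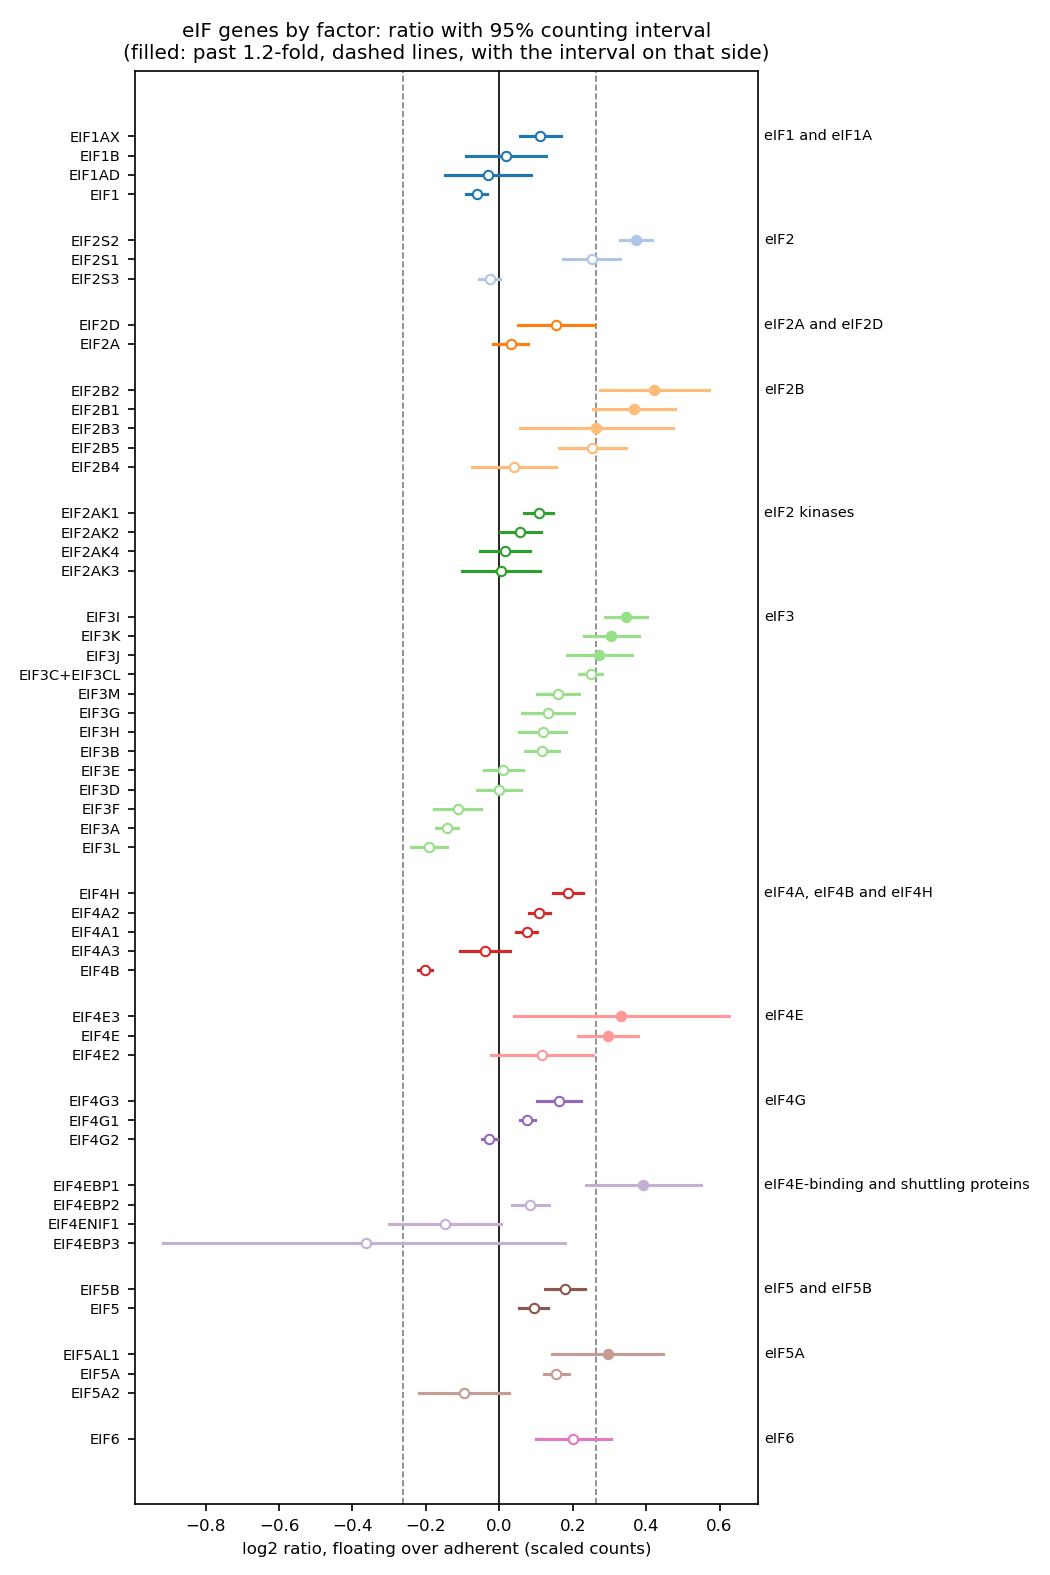
Log2 ratio of floating over adherent (x axis, scaled counts) for 52 initiation factor genes grouped by factor, with 95% counting intervals as lines. The 11 filled points are the genes past 1.2-fold (dashed lines) with the interval on that side, 3 of them in eIF2B and 3 in eIF3, and none lies on the lower side.

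eIF2, the carrier of the initiator tRNA, was uneven between its subunits. EIF2S2, which encodes the beta subunit, had 9632 reads and 301 TPM in floating cells, against 7190 reads and 240 TPM in adherent cells, a ratio of 1.29-fold (interval 1.26 to 1.34). EIF2S1, the alpha subunit whose phosphorylation shuts down general initiation, had 2996 reads in floating and 2432 reads in adherent cells, a log2 ratio of 0.25 (0.17 to 0.33). EIF2S3, the GTP-binding gamma subunit, had 422 TPM in floating and 444 TPM in adherent cells, and its interval, -0.06 to 0.003, included no difference. The alpha subunit was thus the least abundant of the 3 mRNAs in both libraries, at 56.4 TPM in floating and 48.8 TPM in adherent cells. EIF2A and EIF2D, which encode proteins that can deliver initiator tRNA without eIF2, had log2 ratios of 0.03 (interval -0.02 to 0.08; -0.01 on TPM) and 0.16 (0.05 to 0.26).

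All 5 subunits of eIF2B, the exchange factor that is mutated in vanishing white matter disease, had ratios above 0, under each of the 4 scalings of the counts and on TPM, and 3 passed 1.2-fold. EIF2B2 (beta) had 879 reads in floating and 634 reads in adherent cells, or 49.2 and 37.8 TPM, a ratio of 1.34-fold (interval 1.21 to 1.49). EIF2B1 (alpha), a regulatory subunit that senses phosphorylated eIF2, had 1508 and 1130 reads, or 67.6 TPM in floating and 54.0 TPM in adherent cells, a ratio of 1.29-fold (1.19 to 1.39). EIF2B3 (gamma) was the least abundant, at 19.1 TPM in floating and 16.0 TPM in adherent cells, and its ratio of 1.201-fold had an interval from 1.04 to 1.39 and fell short of 1.2-fold with the length trend removed (log2 ratio 0.24). EIF2B5 (epsilon), the catalytic subunit, had 2152 reads in floating and 1745 in adherent cells, a log2 ratio of 0.25 (0.16 to 0.35). EIF2B4 (delta) was the exception, with 62.2 TPM in floating and 62.0 TPM in adherent cells and a log2 ratio of 0.04 (-0.07 to 0.15). The median of the 5 log2 ratios was 0.26.

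The kinases that phosphorylate eIF2 were close to equal in the libraries, and none of the 4 passed 1.2-fold. EIF2AK1 (HRI), which responds to heme shortage and mitochondrial stress, was the most abundant, at 194 TPM in floating and 185 TPM in adherent cells, with a log2 ratio of 0.11 (interval 0.07 to 0.15). EIF2AK2 (PKR), the kinase activated by double-stranded RNA, had a log2 ratio of 0.06 (0.0007 to 0.11). EIF2AK3 (PERK), the kinase of endoplasmic reticulum stress, had 24.7 TPM in floating and 25.4 TPM in adherent cells, and EIF2AK4 (GCN2), the kinase of amino acid shortage, 51.4 and 52.5 TPM. The intervals of both, -0.10 to 0.11 and -0.05 to 0.08, included no difference. EIF2AK1 held 52.1% of the summed TPM of the 4 kinases in floating and 50.9% in adherent cells.

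eIF3 is the largest initiation factor, a scaffold of 13 subunits that binds the small ribosomal subunit and eIF4G. Its subunits split: 3 of 13 passed 1.2-fold, 8 had intervals above 0, and 3 had intervals below 0. EIF3G and EIF3H, among those 8, had log2 ratios of 0.13 and 0.12, but of only 0.04 each with the length trend removed. EIF3I had 5831 reads and 348 TPM in floating cells, against 4439 reads and 282 TPM in adherent cells, a ratio of 1.27-fold (interval 1.22 to 1.32). EIF3K had 3326 reads and 371 TPM in floating cells, against 2602 reads and 308 TPM in adherent cells, a ratio of 1.24-fold (1.17 to 1.301). EIF3K is a short transcript, and with the trend of ratios over transcript length removed its log2 ratio was 0.18 in place of 0.31, below 1.2-fold. EIF3J, a loosely bound subunit at the decoding centre, had 2360 reads in floating and 1888 reads in adherent cells, a ratio of 1.21-fold (1.14 to 1.28). The sum of EIF3C and EIF3CL was the most abundant, at 486 TPM in floating and 422 TPM in adherent cells, with a log2 ratio of 0.25 (0.22 to 0.28). EIF3CL alone was given 64.15 estimated reads in floating and 0 in adherent cells, a split between near-identical genes that carries no information on its own.

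On the other side of eIF3, 3 subunits were lower in floating cells by less than 1.2-fold. EIF3L, which sits beside EIF3K in the complex, had 6229 reads and 247 TPM in floating cells, against 6876 reads and 290 TPM in adherent cells, a ratio 1.14-fold lower (interval 1.103 to 1.18). EIF3A, the largest subunit and a scaffold of the complex, had 18077 reads in floating and 19287 reads in adherent cells, 1.104-fold lower (1.08 to 1.13). EIF3F had 273 TPM in floating and 305 TPM in adherent cells, with a log2 ratio of -0.11 (-0.18 to -0.05). All 3 also stayed below 0 with the length trend removed. They did so on TPM and under the other scalings of the counts as well, but those settings shift all genes nearly alike. The shifts were too small to change these signs. The 5 subunits of the yeast-like core (EIF3A, EIF3B, EIF3C with EIF3CL, EIF3G and EIF3I) ran from -0.14 to 0.34. The other 8 ran from -0.19 to 0.31, so neither group moved as one.

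Levels of the subunits were close to each other per length. Without EIF3J, the 12 subunits lay between 197 and 486 TPM in floating cells and between 201 and 422 TPM in adherent cells. EIF3J stood apart at 74.8 TPM in floating and 63.9 TPM in adherent cells. EIF3E and EIF3D were near equal in the libraries, with log2 ratios of 0.01 (-0.03 on TPM) and -0.0002 (0.009 with DESeq2 size factors) and intervals that included 0.

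**Figure D3:**
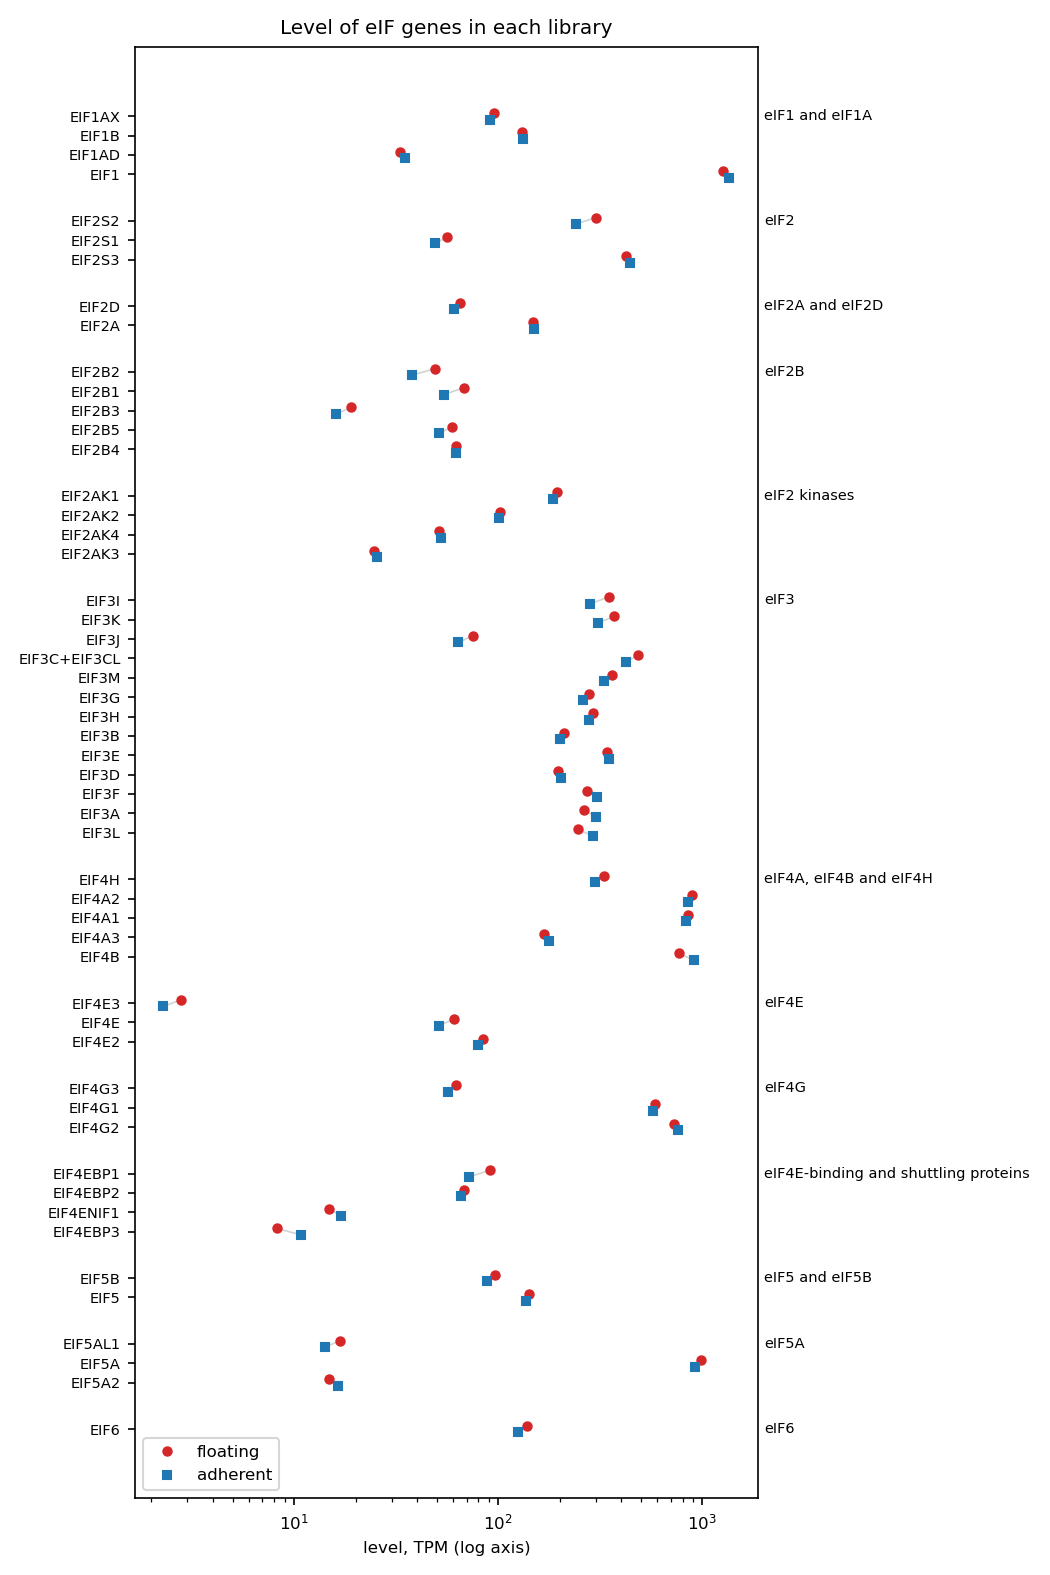
Level in TPM (log axis) of 52 initiation factor genes, grouped by factor, in floating (red circles) and adherent cells (blue squares). Levels ran from 2.78 TPM in floating and 2.29 TPM in adherent cells for EIF4E3 to 1264 and 1358 TPM for EIF1, and the marks of most genes nearly coincide.

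The cap-binding proteins and their inhibitors included 3 of the 11 higher genes. EIF4E, the main cap-binding protein, had 2776 reads and 60.6 TPM in floating cells, against 2185 reads and 51.0 TPM in adherent cells, a ratio of 1.23-fold (interval 1.16 to 1.299). EIF4EBP1, the 4E-binding protein that mTORC1 phosphorylates and whose gene is a known target of the stress factor ATF4, had 797 reads and 91.6 TPM in floating cells, against 587 reads and 71.7 TPM in adherent cells, a ratio of 1.31-fold (1.18 to 1.46). Both the binder and its target were therefore higher. The TPM of EIF4EBP1 per TPM of EIF4E was 1.51 in floating and 1.41 in adherent cells, but their counting intervals overlapped. With the length trend removed the order of their log2 ratios reversed, at 0.27 for EIF4EBP1 and 0.32 for EIF4E. EIF4EBP2 had 67.8 TPM in floating and 66.0 TPM in adherent cells, a log2 ratio of 0.08 (0.03 to 0.14). Per TPM of EIF4E it went the other way from EIF4EBP1, at 1.12 in floating and 1.29 in adherent cells. EIF4EBP1 held 54.7% of the summed TPM of the 3 binding proteins in floating and 48.3% in adherent cells. EIF4EBP3 shares exons with the read-through symbol ANKHD1-EIF4EBP3, had 53 and 66 estimated reads, and its interval, -0.92 to 0.18, included no difference.

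EIF4E2, a cap-binding homologue that represses translation, was more abundant than EIF4E, at 84.2 TPM in floating and 79.8 TPM in adherent cells, and its interval, -0.02 to 0.26, included no difference. EIF4E3 was scarce, with 224 and 172 reads, and its ratio of 1.26-fold had an interval from 1.03 to 1.54. EIF4ENIF1, which shuttles EIF4E into the nucleus, had 14.8 TPM in floating and 16.9 TPM in adherent cells, with an interval of the log2 ratio from -0.30 to 0.004.

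The promoter window of EIF4E holds 2 copies of the E-box CACGTG, the sequence bound by MYC and related factors, and is shown around and between them because EIF4E was among the higher genes. The same 6 bases read alike on both strands. They were found in 12 of 45 initiation factor genes (26.7%), against 12.6% of tested genes and 7.26% of all windows. EIF2B3 and EIF3K, also among the 11, hold 1 copy each. EIF4G1 and EIF5A2, with log2 ratios of 0.08 and -0.10 and not past 1.2-fold, hold 2 copies each, and EIF5A2 is shown beside the higher genes for that reason. The E-boxes are in capitals.
EIF4E (chr4:98929183-98929373, - strand): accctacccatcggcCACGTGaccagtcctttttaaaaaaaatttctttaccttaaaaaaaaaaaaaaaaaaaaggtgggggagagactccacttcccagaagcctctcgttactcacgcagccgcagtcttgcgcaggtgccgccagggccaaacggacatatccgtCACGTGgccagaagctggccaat
EIF2B3 (chr1:44986752-44986789, - strand): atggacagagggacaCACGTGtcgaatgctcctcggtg
EIF3K (chr19:38619070-38619107, + strand): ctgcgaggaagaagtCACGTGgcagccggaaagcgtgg
EIF5A2 (chr3:170908777-170908839, - strand): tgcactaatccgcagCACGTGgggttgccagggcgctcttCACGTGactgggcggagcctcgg
The median log2 ratio of the 12 was 0.04, against 0.12 for the 33 without an E-box. Past 1.2-fold and higher were 3 of the 12 with an E-box and 6 of the 33 without one. Among all tested genes with a window they were 155 of the 1210 with an E-box and 1001 of the 8385 without one. The other 9 of the 12, EIF4B and EIF3F among them, did not pass. The element TGATGCAA, bound by ATF4 with C/EBP factors, was searched on both strands. It is not among the letters of any of the 45 windows, against 0.688% of tested genes. At so low a share, its absence from 45 genes says little. EIF4EBP1 is not among the genes with a window here.

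The scaffolds and helicases of eIF4F were abundant and near equal. EIF4G1, the main scaffold, had 587 TPM in floating and 574 TPM in adherent cells, a log2 ratio of 0.08 (interval 0.06 to 0.10). EIF4G2, a homologue that lacks the eIF4E-binding part, was the more abundant at 724 TPM in floating and 761 TPM in adherent cells, with a log2 ratio of -0.03 (-0.05 to -0.006; 0.007 with the length trend removed). EIF4G3 had 61.8 and 56.7 TPM in floating and adherent cells and a log2 ratio of 0.16 (0.10 to 0.22). The paralogous helicases EIF4A1 and EIF4A2 stood at 847 and 895 TPM in floating cells and at 830 and 855 TPM in adherent cells, so that EIF4A2 held 51.4% of their sum in floating and 50.7% in adherent cells. EIF4A3, a subunit of the exon junction complex, had a log2 ratio of -0.04 (-0.11 to 0.03).

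The helicase cofactors EIF4B and EIF4H lay on opposite sides. EIF4B had 39217 reads and 764 TPM in floating cells, against 43598 reads and 907 TPM in adherent cells, a ratio 1.15-fold lower (interval 1.13 to 1.17). EIF4H had 10097 reads and 328 TPM in floating cells, against 8574 reads and 298 TPM in adherent cells, a ratio of 1.14-fold (1.11 to 1.17). The TPM of EIF4B per TPM of EIF4H was 2.33 in floating and 3.04 in adherent cells. EIF4B had the most reads of the 56 genes in the adherent library, and no other gene of at least 100 reads had a lower ratio.

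The factors of start codon selection and subunit joining showed small differences. EIF1, the gatekeeper of start codon selection and the most abundant of the genes, had 1264 TPM in floating and 1358 TPM in adherent cells, 1.04-fold lower (interval 1.02 to 1.06), while its paralogue EIF1B had a log2 ratio of 0.02 (-0.09 to 0.13; -0.02 on TPM). EIF1AX had 95.6 TPM in floating and 91.2 TPM in adherent cells, a log2 ratio of 0.11 (0.06 to 0.17). EIF1AD, which encodes a protein with an eIF1A-like domain, had a log2 ratio of -0.03 (-0.15 to 0.09). EIF5, which triggers GTP hydrolysis by eIF2, and EIF5B, which joins the ribosomal subunits, had log2 ratios of 0.09 (0.05 to 0.13) and 0.18 (0.12 to 0.23). EIF6, which keeps the large subunit from joining too early, had 139 TPM in floating and 125 TPM in adherent cells, a log2 ratio of 0.20 (0.10 to 0.30).

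eIF5A is the only known protein family with hypusine, a modified lysine, and acts in elongation and termination as well. EIF5A had 15010 reads and 990 TPM in floating cells, against 13024 reads and 916 TPM in adherent cells, a log2 ratio of 0.16 (interval 0.12 to 0.19). EIF5A2 had 14.9 TPM in floating and 16.4 TPM in adherent cells, with an interval from -0.22 to 0.03 that included no difference. EIF5AL1, an intronless copy of EIF5A, was 1.23-fold higher (1.11 to 1.36), with 819 and 645 estimated reads in floating and adherent cells. Its estimates have decimals, so reads were split between it and EIF5A, and their sum had a log2 ratio of 0.16.

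In both libraries the initiation factor genes together held about the same share of the transcriptome, 1.303% of all TPM in floating and 1.28% in adherent cells. Ratios in these libraries declined with transcript length, measured as reads per TPM, over all genes tested (Spearman's rho -0.18 across 13130 genes of the same pair of libraries). Among the 53 initiation factor genes rho was -0.14. With the trend removed, 10 genes were past 1.2-fold, 9 of them among the 11, and 0 were lower, against 11.4% of all tested genes higher and 11.9% lower in the same calculation. EIF3K (log2 ratio 0.18) and EIF2B3 (0.24) left the set and EIF2S1 (0.29) joined it.

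**Figure D4:**
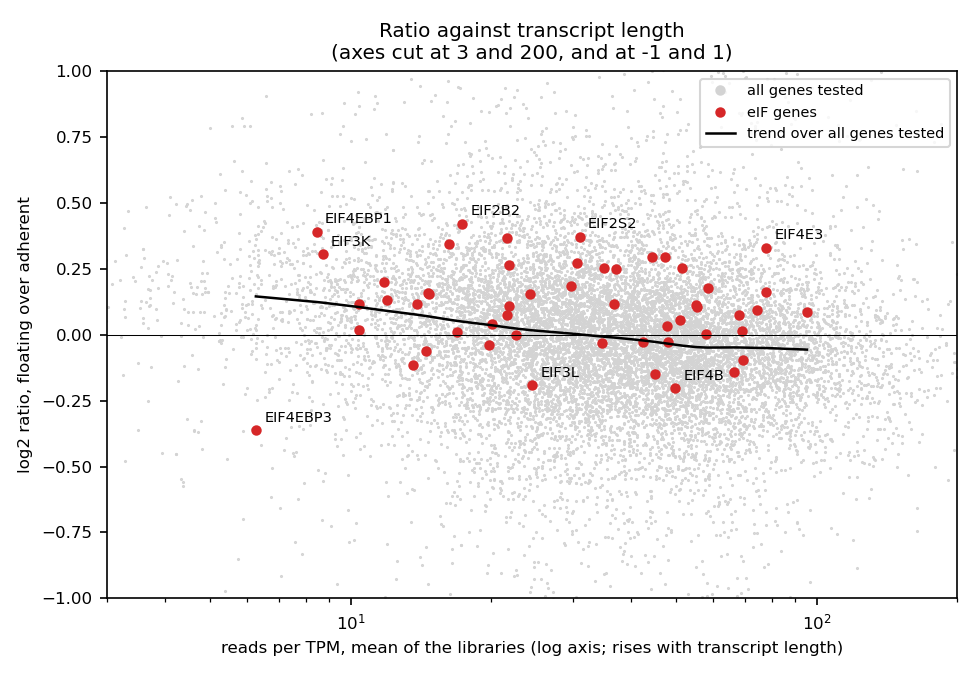
Log2 ratio of floating over adherent (y axis) against reads per TPM, a stand-in for transcript length (x axis, log), for 52 initiation factor genes (red) and all genes tested (grey), with the trend over all genes as a line. EIF4EBP1 and EIF3K lie at the short end, where the trend is above 0, EIF2S2 lies where it is near 0, and EIF4E3 and EIF4B lie where it is below 0.

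Genes that act with the initiation factors were described by lists, whose counts are to be read against the 12.1% of all tested genes higher and 12.5% lower past 1.2-fold. The counts were not tested, and the genes named are given as values of single genes. Of 19 initiation partners, 1 was past 1.2-fold higher and 1 lower in floating cells, with a median log2 ratio of 0.04. The list is too short to read its difference from those shares as a result. BZW2, which encodes a mimic of eIF5, was 1.22-fold higher (interval 1.09 to 1.37), with 706 reads in floating and 558 in adherent cells. PDCD4, an inhibitor of eIF4A, was 1.21-fold lower (1.14 to 1.28), with 2356 and 2754 reads. Of 14 regulators of eIF2 phosphorylation, PPP1R15A (GADD34), which directs the phosphatase to eIF2, was 1.27-fold higher (log2 interval 0.20 to 0.49), with 941 reads in floating and 717 in adherent cells, and no other gene passed.

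Of 20 genes of the mTORC1 pathway, 2 were higher and 1 lower past 1.2-fold (median 0.10), no more than the shares over all tested genes. DDIT4, an inhibitor of mTORC1 induced by stress, had 387 reads in floating and 235 in adherent cells, a ratio of 1.59-fold (interval 1.35 to 1.88), and RRAGD, a GTPase of amino acid sensing, was 1.996-fold higher (1.62 to 2.48) with 271 and 131 reads. RRAGB, of the same family, was 1.42-fold lower (interval 1.203 to 1.69) with 242 and 333 reads. MTOR had a log2 ratio of 0.19 (0.14 to 0.25) and RPTOR one of 0.09 (-0.004 to 0.19), both under 1.2-fold.

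Of 13 elongation and termination factors, 2 were higher and 0 lower (median -0.02), against the same 12.1% and 12.5%. ETF1, the release factor that reads stop codons, was 1.29-fold higher (interval 1.25 to 1.32) with 11321 reads in floating and 8512 in adherent cells, and EEF1E1, a component of the multi-synthetase complex, was 1.36-fold higher (1.24 to 1.49). EEF1A1 and EEF2, the main elongation factors, had log2 ratios of -0.09 (-0.101 to -0.087) and -0.19 (-0.202 to -0.17). Of 8 mitochondrial factors, MTIF3 (1.24-fold, interval 1.07 to 1.44) and GFM1 (1.25-fold, 1.19 to 1.31) were higher and MTRF1L, a release factor, was 1.44-fold lower (1.37 to 1.53).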

How the data were processed

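The authors deposited 2 tables by gene symbol. One holds estimated counts, not normalized, and the other TPM, which the authors scaled to columns that sum to 1000000 within rounding. The build hg19 and the tools RSEM 1.3.3, STAR 2.5.3a and FastQC 0.11.1 are named per the submitters' processing notes. The sources used here do not say which annotation and settings were used, or whether strand was.

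Estimated counts were rounded and scaled by TMM (edgeR 4.0.16, R 4.3.3). The log2 ratio used (count + 0.5) per effective library size, over genes of at least 1 CPM (about 27 reads). Intervals are exact Clopper-Pearson 95% intervals given the summed reads. Reads are not unique molecules, so intervals and the limit of 3 reads for a count of 0 cover counting error only. A gene is past a fold if its ratio reaches that fold and its interval lies on the same side of 0. With 1 library per growth form, edgeR's test was not run.

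The members, lists and thresholds were chosen with earlier results of these data known. Values, not always reads, TPM and ratio together, were given for genes past 1.2-fold, the extremes and the most abundant gene of each factor, and up to 4 genes of each list. Other genes named with values were chosen after they were seen, as were the promoter motifs. Alternatives were upper-quartile scaling, library totals, size factors from DESeq2 1.42.0, log2 of (TPM + 0.1), a prior count of 5, other filters and folds, and removal of a lowess trend over reads per TPM (span 0.3, statsmodels 0.14.6). Other steps ran in Python 3.11.15 (pandas 2.3.3, scipy 1.17.1, numpy 2.4.6).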

Additional observations from a re-analysis of the deposited data

How the results depend on the processing

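The number of initiation factor genes past 1.2-fold and higher in floating cells ranged from 9 to 11 with DESeq2 size factors, library totals, upper-quartile scaling, a minimum of 5 CPM, no filter, a prior count of 5 or the length trend removed, and 0 were lower in each. On the deposited TPM, with no counting interval, 7 were higher and 1 (EIF4EBP3) was lower, and with no counting interval asked of the counts 1 was lower. Apart from the length trend, no share over all tested genes is given for these settings. Their counts therefore show only how the calls of the members moved. At 1.5-fold 0 were higher, and at 1.1-fold 22 were higher and 3 lower. The overall median of 0.11 ranged from 0.096 to 0.12 under those 7 alternatives and was 0.07 on TPM, where the median of all genes tested was -0.05. On TPM the median of eIF2 was 0.21, that of eIF4A, eIF4B and eIF4H 0.031 and that of eIF4G 0.032. With the length trend removed the median of eIF3 was 0.042, against 0.12 as reported, and that of eIF4G 0.12. No gene past 1.2-fold changed sign under any alternative run, but the shifts from scaling, TPM and the length trend were too small to change a sign at that size. eIF5 and eIF5B hold 2 genes, so no median was formed. Adding the read-through reads to EIF4A1 and EIF4EBP3, or EIF5AL1 to EIF5A, kept each ratio within its interval; these additions and the removal of genes with decimal estimates were chosen after seeing the data. No paired analysis was possible because each growth form has 1 library, and for the same reason no library could be left out. Counting error limits EIF4E3, EIF4EBP3 and EIF2B3, whose intervals are wide.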
